A study of Mus musculus with 5 samples.

Results

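The EGFR family ligands Areg, Ereg, Epgn, Hbegf, Btc, Tgfa and Egf and the receptors Egfr, Erbb2 and Erbb3 were followed through mouse mammary glands and a mammary tumor profiled by single-cell RNA sequencing. These 10 members were matched by gene symbol, with no use of their measured values, among the 27998 genes of the deposited count tables. The measurements were UMI counts, that is, counts of distinct captured mRNA molecules per gene and cell barcode, in 5 libraries. All 5 libraries came from mice carrying Trp53 flox/flox and Krt14cre, a Cre recombinase driven by the Krt14 promoter of basal epithelium, so no group had an unmodified Trp53 locus. BPK mice were in addition Brca1 wt/flox, and PK mice were Brca1 wt/wt. The groups were BPK glands after 12 intraductal injections of the PBS/PEG vehicle (1 library), PK glands after 12 injections of the mutagen 4NQO (1 library), BPK glands after 12 injections of 4NQO (2 libraries) and a BPK mammary tumor that formed after 24 injections of 4NQO (1 library). Ages were not among the labels, and the labels do not say whether the replicate libraries came from separate animals, so p-values measure only the spread between these libraries, which may be technical.

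EGFR family ligands are made as membrane-anchored precursors and released by proteases such as Adam17. The released ligands bind Egfr, which pairs with itself or with Erbb2, a receptor with no ligand of its own, or with Erbb3, a receptor for neuregulins with little kinase activity, and signals through the ERK cascade. In the mammary gland, amphiregulin (Areg) is induced by estrogen in hormone-sensing luminal cells and acts through Egfr on stromal cells during duct growth.

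Library totals ran from 27383717 to 64169843 UMIs, with a median of 2523 to 15195.5 UMIs per barcode, the highest in the tumor. Filters left 31434 of 34526 barcodes, and a gate on marker genes, none of them a member, placed 25685 cells in 15 classes. Hormone-sensing luminal cells (695 to 1820 per gland library), alveolar luminal cells (411 to 1794), basal cells (699 to 1501), fibroblasts (369 to 1070), endothelium (444 to 1008), pericytes (162 to 223) and macrophages (91 to 793) had enough cells in all 4 gland libraries to be tested. BPK 4NQO replicate 2 shared at most 2 cell barcodes with any other library, while each of the other libraries shared at least 30 with 1 of the others; the labels give the same capture chemistry for all. Levels are given as CPM, UMI counts scaled to a total of 1000000 UMIs over the summed cells of a class in a library, always in the order BPK vehicle, PK 4NQO, BPK 4NQO replicate 1, BPK 4NQO replicate 2.

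Some gated classes stood apart from their labels in the tumor. Of the 134 tumor cells gated as basal, 82.8% fell in a keratinocyte-like cluster when cells were clustered without the gate. Their Acta2 level was 883 CPM against 4955 to 6820 CPM in gland basal cells, and their Krt14 level was 12988 CPM against 2261 to 4165 CPM. Of the 58 tumor cells gated as hormone-sensing, 67.2% fell in a cluster that was given no name. In the glands, 37.3%, 32.3% and 26.8% of the alveolar cells of the first 3 libraries fell in unnamed clusters that also held hormone-sensing cells, and in BPK 4NQO replicate 2 22.4% fell in a hormone-sensing cluster. Gland keratinocyte-like cells numbered only 17 to 43 per library, against 973 in the tumor.

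Epgn, Ereg, Areg and Btc are neighbours on mouse chromosome 5 and are the only 4 protein-coding genes annotated across the 376 kb that they span in GRCm38. Epgn lies at chr5:91027464-91035215, Ereg at chr5:91074622-91093646 and Areg at chr5:91139599-91148432, all on the plus strand, and Btc lies at chr5:91357261-91402994 on the minus strand. The 4 genes had different class patterns, given below. Tgfa lies at chr6:86195223-86275719 (plus strand), Egf at chr3:129677565-129755316 (minus), Egfr at chr11:16752203-16918158 (plus), Erbb2 at chr11:98412470-98437716 (plus) and Erbb3 at chr10:128567523-128589652 (minus). Promoter windows of up to 250 bases before the gene, from RefSeq on GRCm38.p6, were found for 7 of the 10 members. Both strands of each were searched for TGACGTCA, the cyclic AMP response element bound by Creb proteins. The other searches were for the AP-1 element bound by Fos and Jun proteins, TGANTCA, and for the TATA box of the core promoter, whose letters were taken as TATAAA; no matches overlap in the windows shown. Only the windows of Areg and Epgn held any of the 3, and these are shown because many of the differences described below are in Areg and Epgn. Capitals mark the matches.
Areg, chr5:91139349-91139598, plus strand: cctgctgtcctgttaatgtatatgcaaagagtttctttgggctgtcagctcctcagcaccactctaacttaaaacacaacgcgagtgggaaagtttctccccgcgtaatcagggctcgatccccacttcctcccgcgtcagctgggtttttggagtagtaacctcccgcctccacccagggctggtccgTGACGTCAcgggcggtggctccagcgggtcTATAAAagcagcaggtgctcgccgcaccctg
Epgn, chr5:91027267-91027463, plus strand: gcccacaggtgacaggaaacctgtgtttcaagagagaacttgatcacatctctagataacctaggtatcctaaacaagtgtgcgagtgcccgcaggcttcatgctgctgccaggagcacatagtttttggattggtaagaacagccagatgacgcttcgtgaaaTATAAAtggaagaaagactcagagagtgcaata
In the Areg window TGACGTCA stands 61 to 54 bases and TATAAA 31 to 26 bases before the gene. In the Epgn window TATAAA stands 33 to 28 bases before it. Of 32851 mouse promoter windows of 250 bases, 1.55% held TGACGTCA, 6.75% held TGANTCA and 12.4% held TATAAA, so a TATA box is a common match and the cyclic AMP response element a rare one. A match describes letters only.

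**Figure D1:**
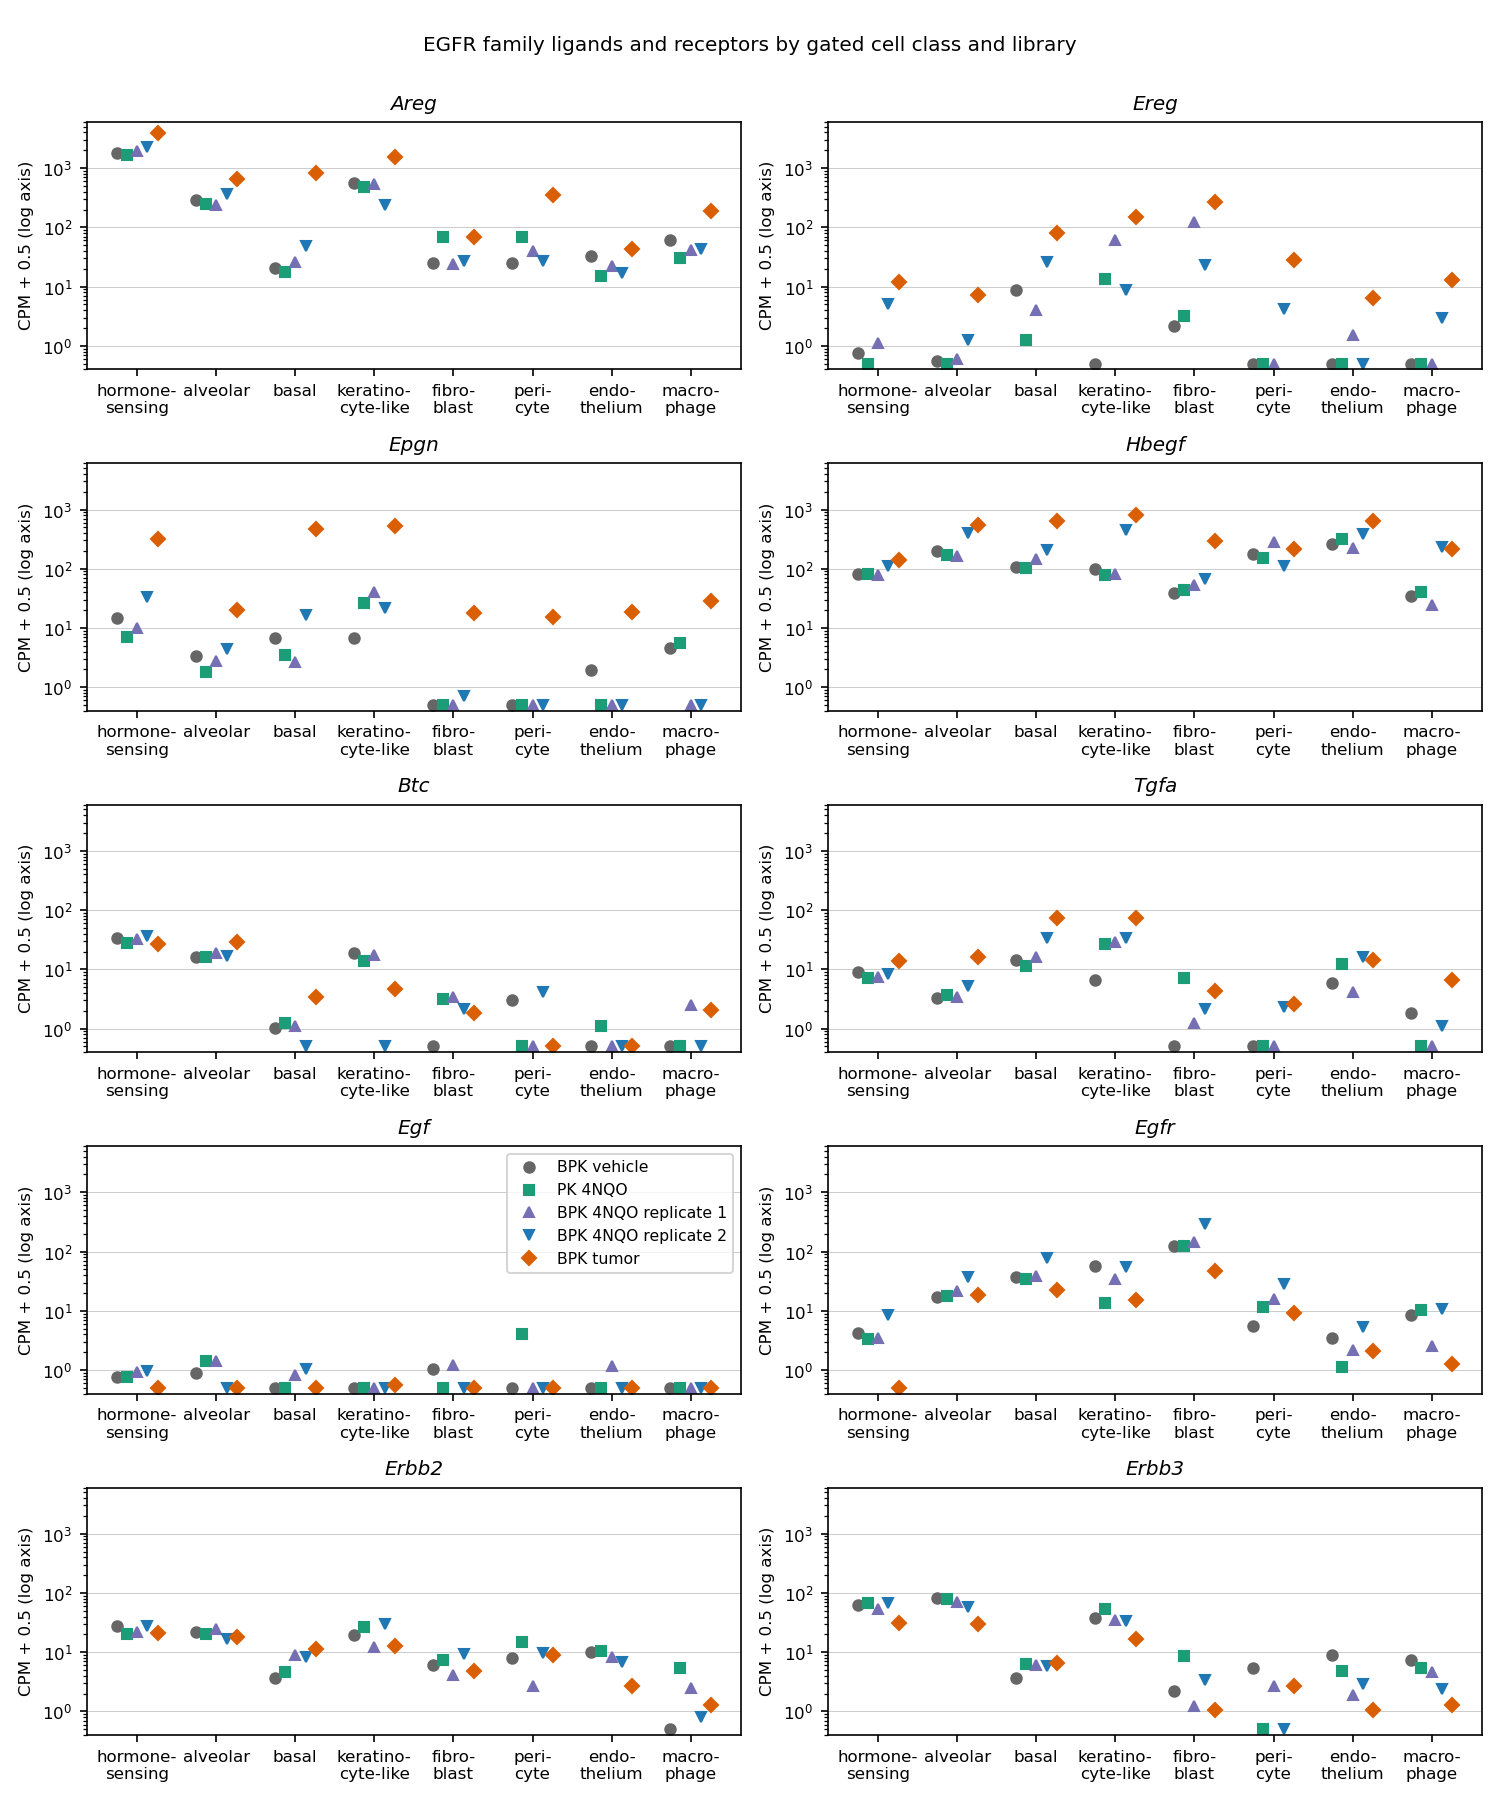
Level of each of the 10 members (CPM + 0.5, log axis) in 8 gated cell classes, with 1 point per library (grey circles BPK vehicle, green squares PK 4NQO, upward and downward triangles the 2 BPK 4NQO libraries, orange diamonds the BPK tumor). Areg is highest in hormone-sensing cells of every library, Egfr is highest in fibroblasts, and the tumor diamonds for Epgn lie above all gland points in each class.

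Among the ligands, Areg was highest in hormone-sensing cells. Its level in hormone-sensing cells was 1779.6, 1638, 1947 and 2228 CPM (1898 ± 253, SD, n = 4). In alveolar cells it was 289, 247, 240.3 and 368 CPM (286 ± 58.5), and in basal cells 19.8, 17.4, 25.5 and 47.4 CPM. Hormone-sensing cells were highest in 4 of 4 libraries without overlap, at 6.63 times the alveolar mean. In edgeR's quasi-likelihood test the log2 fold change was 2.72 (SE 0.26, Benjamini-Hochberg adjusted p = 6.15e-10) against alveolar and 6.23 (SE 0.31, adjusted p = 9.16e-17) against basal cells. Among the 7 tested classes, macrophages, pericytes, fibroblasts, basal cells and endothelium followed with means of 21.2 to 43.2 CPM, and each neighbour in that order overlapped the next. The few gland keratinocyte-like cells, not tested between classes, had 560, 472, 533 and 239.7 CPM of Areg. Hormone-sensing cells held 63.8%, 62.2%, 76.7% and 64.8% of each gland library's Areg UMIs.

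With each cell thinned to 1000 UMIs, 52.6% (exact 95% interval 50.3 to 54.9), 56.3%, 65.1% and 62.8% of hormone-sensing cells had an Areg UMI, a mean of 59.2%. The same share in endothelium, which should lack Areg, was 2.82%, 0.803%, 1.93% and 2.17%. Median depths were 4376 to 6551 UMIs in hormone-sensing cells and 1719 to 2392 in endothelium. Unthinned shares in hormone-sensing cells were 78.6%, 78.7%, 86.1% and 79.4%. Such intervals cover counting error only.

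The alveolar Areg level moved with hormone-sensing markers. Relative to its level in hormone-sensing cells of the same library, alveolar Areg was 16.3%, 15.1%, 12.3% and 16.5%, and the summed level of the 7 hormone-sensing markers was 16.5%, 14.6%, 12.1% and 17.2%. In basal cells the pairs were 1.11% beside 1.37%, 1.06% beside 1.34%, 1.31% beside 1.88%, and 2.13% beside 2.16%. When classes were taken from clusters in place of the per-cell gate, alveolar Areg was 23.7, 18.9, 22.6 and 43.2 CPM while hormone-sensing Areg was 2151, 2036, 2325 and 1875 CPM. The alveolar log2 fold change against the mean of the other classes then turned from 2.27 to -1.21, and alveolar against basal went from 3.51 to 0.08. The part of cells or RNA of the other luminal type in the alveolar value was not tested further.

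**Figure D2:**
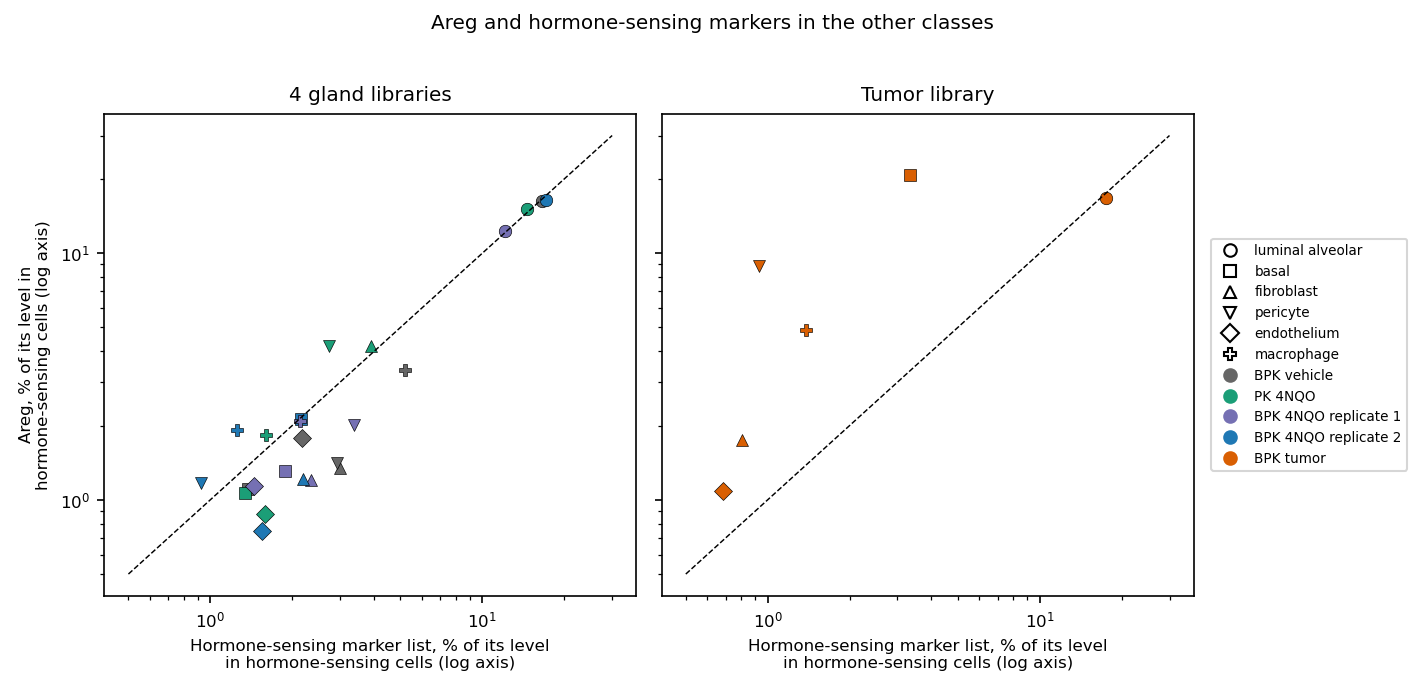
Areg level of 6 classes as a percent of its level in hormone-sensing cells of the same library (y, log axis) against the same percent for the summed hormone-sensing marker list (x, log axis), with the dashed line marking equality. Gland alveolar points (circles, left) lie on the line at 12.1% to 17.2%, while tumor basal cells (orange square, right) lie at 20.8% for Areg and 3.33% for the markers.

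Btc (betacellulin, a ligand of Egfr and Erbb4) was highest in the luminal cells among the 7 tested classes. It measured 33.0, 26.9, 32.5 and 36.5 CPM in hormone-sensing cells (32.2 ± 3.96, SD, n = 4) and 15.7, 15.8, 18.5 and 16.4 CPM in alveolar cells (16.6 ± 1.30). The luminal classes did not overlap each other, and in the edgeR test the log2 fold change between them was 0.92 (SE 0.17, adjusted p = 6.35e-05). Basal cells stayed at or under 0.741 CPM in every gland library, and the contrast against basal was 5.90 (SE 0.35) for hormone-sensing and 4.98 (SE 0.37) for alveolar cells. Glial cells, a small class with no test, had Btc at 10.7, 69.2, 94.9 and 75.1 CPM.

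Epgn (epigen, a low-affinity Egfr ligand) was low in the glands. Hormone-sensing cells had 14.5, 6.66, 9.62 and 33.1 CPM, basal cells 6.23, 2.96, 2.20 and 16.3 CPM, and alveolar cells 2.88, 1.30, 2.28 and 3.89 CPM. Hormone-sensing cells were highest of the 7 tested classes in 4 of 4 libraries, although the ranges of hormone-sensing and basal cells overlapped. The few gland keratinocyte-like cells, not tested between classes, had 6.22, 26.2, 40.3 and 21.02 CPM of Epgn. The hormone-sensing contrast was 2.39 (SE 0.31, edgeR adjusted p = 3.17e-07) against alveolar and 1.34 (SE 0.32, adjusted p = 0.000697) against basal cells, and the latter was not called by DESeq2 (adjusted p = 0.0750). Gland fibroblasts held 1 Epgn UMI in all and gland pericytes none.

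Ereg (epiregulin, which activates Egfr and Erbb4) was not a luminal gene. Hormone-sensing cells stayed at or under 4.53 CPM and alveolar cells at or under 0.779 CPM in the glands, with basal cells at 8.18, 0.741, 3.46 and 25.8 CPM. Alveolar cells were lower than basal cells by a log2 fold change of -6.0 (SE 0.99, edgeR adjusted p = 6.88e-06), and hormone-sensing cells by -3.43 (SE 0.74, adjusted p = 0.000189). Fibroblasts had 1.68, 2.70, 120.4 and 22.9 CPM, so the first 2 libraries were low, both BPK 4NQO libraries high, and the class had no common level. Its contrast against the mean of other classes (4.97, SE 0.55) therefore averages over unlike libraries.

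Tgfa (transforming growth factor alpha) was highest by mean in basal cells among the 7 tested classes, at 13.9, 10.7, 15.4 and 33.7 CPM (18.4 ± 10.4, SD, n = 4). Hormone-sensing cells had 6.79 to 8.52 CPM and alveolar cells 2.78 to 4.67 CPM, and neither range overlapped the basal range. Endothelium, at 5.37, 11.9, 3.74 and 15.8 CPM, did overlap it, as did the untested gland keratinocyte-like cells at 6.22, 26.2, 28.8 and 33.6 CPM. Basal cells stood above the mean of other classes by 2.99 (SE 0.29, edgeR adjusted p = 3.91e-10), and hormone-sensing cells were above alveolar cells by 1.19 (SE 0.28) and below basal cells by -1.08 (SE 0.27).

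Hbegf (heparin-binding EGF-like growth factor) was spread over many classes. Endothelium had 259, 312, 227 and 385 CPM (296 ± 68.8, SD, n = 4), alveolar cells 199, 170.1, 161 and 399 CPM, pericytes 179.9, 152, 277 and 112 CPM, and basal cells 105, 103, 147 and 211 CPM. Neighbours in that order overlapped, and endothelium did not overlap basal cells. Hormone-sensing cells (77.8 to 112 CPM) were below alveolar cells by a log2 fold change of -1.32 (SE 0.30, edgeR adjusted p = 0.000582). Endothelium was above the mean of other classes by 1.19 (SE 0.22, adjusted p = 3.26e-05) and fibroblasts, at 39.2 to 67.8 CPM, below it by -1.67 (SE 0.29, adjusted p = 1.65e-05). Macrophages had 34.0, 39.8 and 24.3 CPM in the first 3 libraries and 230.4 CPM in BPK 4NQO replicate 2.

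Egf itself was near the detection limit: over all kept cells it was 0.314, 0.488, 0.559 and 0.159 CPM in the glands and 0.0354 CPM in the tumor. It passed the low-count filter only in the within-class models of alveolar cells, and its class differences were not tested. The values below concern the other 6 ligands and the receptors.

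Among the receptors, Egfr had its highest mean CPM in fibroblasts, followed by basal cells, among the 7 tested classes, and was low in hormone-sensing cells. Fibroblasts carried 124, 121, 142 and 296 CPM (171 ± 83.7, SD, n = 4), basal cells 37.4, 33.7, 38.4 and 76.9 CPM, alveolar cells 16.5, 17.0, 20.8 and 36.2 CPM, and hormone-sensing cells 3.69, 2.89, 3.0 and 8.15 CPM. Fibroblasts did not overlap basal cells, at 3.66 times their mean, and exceeded the mean of other classes by a log2 fold change of 3.99 (SE 0.11, edgeR adjusted p = 8.49e-24). Hormone-sensing cells were below alveolar cells by -2.42 (SE 0.16, adjusted p = 7.69e-13) and below basal cells by -3.38 (SE 0.16, adjusted p = 3.97e-17). Alveolar cells were below basal cells by -0.95 (SE 0.14, adjusted p = 9.39e-07). In each of these 4 classes BPK 4NQO replicate 2 was the highest library. Untested gland keratinocyte-like cells had 56.0, 13.1, 34.6 and 54.7 CPM of Egfr. Of fibroblasts thinned to 1000 UMIs, 10.2%, 9.77%, 13.2% and 26.7% had an Egfr UMI.

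Erbb2 and Erbb3 were highest by mean in the luminal cells among the 7 tested classes and did not separate the luminal classes. Erbb2 measured 27.2, 19.7, 21.4 and 27.2 CPM in hormone-sensing and 21.4, 19.6, 24.3 and 16.4 CPM in alveolar cells. The difference of 0.16 (SE 0.18, edgeR adjusted p = 0.501) was not called, while the contrasts against basal cells (3.20 to 8.49 CPM) were 2.16 (SE 0.24) and 2.00 (SE 0.25). Erbb3 measured 62.4, 67.1, 52.8 and 68.4 CPM in hormone-sensing and 80.8, 77.9, 71.2 and 56.5 CPM in alveolar cells, a difference of -0.22 (SE 0.18, adjusted p = 0.339) that was not called. Against basal cells (3.20 to 5.93 CPM) Erbb3 was higher by 3.78 (SE 0.25) in hormone-sensing and by 4.00 (SE 0.25) in alveolar cells.

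Counted over the 9 members that passed the low-count filter (all but Egf), hormone-sensing cells had 4 higher and 2 lower than alveolar cells, where 44.4% of all genes tested were called in either direction. Against basal cells, hormone-sensing cells had 5 higher and 3 lower (60.4% of all genes called) and alveolar cells 5 higher and 4 lower (55.9%). Against the mean of the other classes the counts were 6 higher and 2 lower in hormone-sensing cells (63.1% of all genes), 7 and 1 in alveolar cells (59.9%), and 4 and 3 in basal cells (55.6%). In the stroma they were 2 and 3 in fibroblasts (50.1%), 2 and 4 in endothelium (50.8%), 0 and 2 in pericytes (31.3%) and 0 and 5 in macrophages (51.4%). In all, 64 of 90 member tests were called; with a gland library left out 56 to 60 were. The classes are defined by their expression and most genes differ between them, so the counts are read as description.

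Other genes of the pathway differed between the classes as well. Of 13 feedback inhibitors of ErbB and ERK signalling, 10 were higher and 1 lower in basal cells against the mean of other classes (median log2 fold change 0.99, all genes 0.02), and 2 were higher and 6 lower in hormone-sensing cells (median -0.23, all genes 0.01). Of the 9 measured ERK-induced genes, 7 were higher and 1 lower in basal cells (median 0.97), and 1 was higher and 5 lower in hormone-sensing cells (median -0.60). All 6 measured estrogen and progesterone targets were higher in hormone-sensing cells (median 4.62). That list was drawn up as targets in hormone-sensing cells, so its direction there is description only. Cited1 and Pgr of that list are also gate markers. Of the 6 ligand-shedding genes, 3 were higher and 2 lower in hormone-sensing cells (median 0.10), and 4 were higher and 2 lower in fibroblasts (median 0.91). Of the 10 adaptors and ubiquitin ligases, 1 was higher and 6 lower in hormone-sensing cells (median -0.35). Of 3 measured genes among Erbb4 and the neuregulins, 2 (Nrg1 and Nrg2, ligands of Erbb3 and Erbb4) were higher in basal cells. Nrg1 measured 137, 74.1, 78.6 and 174 CPM there.

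The genes whose levels over the 28 class-by-library sums of the glands followed each member most closely were sought among 8270 genes. These correlations of log2(CPM + 1) are descriptive, since the 28 sums share 4 libraries and 7 classes. Areg was closest to Prlr (Pearson r = 0.974), a gate marker, Stc2 (0.966) and Krt7 (0.961), and Btc to Krt19 (0.915), Slc5a5 (0.907) and Stc2 (0.907). Epgn was closest to Ggt1 (0.884), Fgg (0.876) and Eps8l1 (0.865), and Ereg to Serpinb2 (0.834), Vcan (0.775) and Sema3c (0.769). Hbegf was closest to Taf3 (0.876), Myo10 (0.873) and Pkp4 (0.859), and Tgfa to Hras (0.821), Itgb4 (0.817) and Set (0.807). Egfr was closest to Fzd2 (0.916), Rhoq (0.901) and Dclk1 (0.900), Erbb2 to Ptrh2 (0.871), Brd8 (0.861) and Epb41l5 (0.847), and Erbb3 to Wnt7b (0.940), Myh14 (0.937) and Bspry (0.936).

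Within hormone-sensing cells, those with at least 1 UMI of Upk3a or Fgb, neither of them a member, had more of 3 ligands. Their Hbegf level was 90.8, 95.2, 92.4 and 131 CPM against 70.8, 71.3, 69.7 and 101 CPM in cells without, a log2 fold change of 0.41 (SE 0.06, edgeR adjusted p = 0.000157), higher in 4 of 4 libraries. Epgn was 17.9, 7.88, 12.0 and 44.1 CPM against 9.61, 5.61, 8.34 and 26.9 CPM (0.71, SE 0.13, adjusted p = 0.00105). Areg was 1764, 1805, 2309 and 2773 CPM against 1802, 1495, 1749 and 1922 CPM (0.31, SE 0.06, adjusted p = 0.00255). Areg was thus higher in 3 of 4 libraries and not in BPK vehicle. The other 5 members tested were not called, and 8.62% of all genes were called. Cells with a marker UMI were also deeper, with median UMIs of 7492, 5410, 9189 and 6711 against 5722, 3972.5, 5799 and 4037, and the part of depth in the result was not tested. Among pathway genes, Plaur (0.65), Etv4 (0.50), Emp1 (0.49), Cited1 (0.44), Errfi1 (0.36), Dusp5 (0.31) and Dnajb1 (0.25) were higher and Hspa1a (-0.45), Pgr (-0.38), Wnt4 (-0.35), Hspa1b (-0.34) and Adam10 (-0.29) lower in these cells.

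Within fibroblasts, those with a UMI of Pi16 or Dpp4, markers of adventitial fibroblasts, had less Hbegf (log2 fold change -0.56, SE 0.17, edgeR adjusted p = 0.0470). Of the 3 members tested, Egfr (-0.20, adjusted p = 0.401) and Areg (-0.12, adjusted p = 0.930) were not called, and 11.2% of all genes were. The Hbegf call was lost without BPK 4NQO replicate 2 (adjusted p = 0.450), without BPK vehicle (adjusted p = 0.156) and with doublets kept (adjusted p = 0.174).

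The question whether 4NQO changed the family was put to BPK glands, both 4NQO libraries against the vehicle library, within each class. Of 42 member tests 1 was called: Ereg rose in fibroblasts. Vehicle fibroblasts held 3 Ereg UMIs in 2 of 713 cells (1.68 CPM). BPK 4NQO replicate 1 held 164 UMIs in 33 of 400 cells (120.4 CPM) and replicate 2 held 111 UMIs in 47 of 1070 cells (22.9 CPM). Ereg was concentrated in few cells: the 10 highest held 72.0% and 56.8% of these UMIs. The ratio of mean CPM was 42.7, with an interval of 14.6 to 207 from the counting error of the vehicle count alone, and the log2 fold change was 5.27 (SE 1.14, edgeR adjusted p = 0.00339). DESeq2 gave 5.32 and did not call it (adjusted p = 0.0590). On the log2(CPM + 0.5) scale, with no test, the change was 3.42 with replicate 2 alone and 5.79 with replicate 1 alone. PK 4NQO fibroblasts held 2 Ereg UMIs (2.70 CPM) in 369 cells.

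No other member was called under 4NQO, in any class, and Ereg in fibroblasts was also the only member test with an unadjusted p under 0.05. Of 10386 genes tested in fibroblasts, 338 had such a p. Areg in hormone-sensing cells differed by 0.09 (SE 1.09), Btc by -0.08 (SE 0.75) and Egfr in fibroblasts by 0.60 (SE 0.94). Of all genes tested, 0.279% were called in fibroblasts, 0.45% in basal cells, 0.422% in alveolar cells, 0.367% in hormone-sensing cells, 0.308% in endothelium, 0.0455% in pericytes and 0% in macrophages. This model had 1 residual degree of freedom, from the BPK 4NQO pair. On counts simulated with the same spread for every gene, this model recovered 0% of the 2-fold and 51% of the 4-fold changes in fibroblasts. A 2-fold shift was thus below detection in the simulated counts. That spread was not taken from the real counts, so the share recovered among real genes may differ. No gene of the 7 pathway lists was called.

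The BPK and PK glands under 4NQO, which differ by Brca1 genotype, were compared in the same model. The comparison shares its BPK 4NQO libraries with the one above. The 1 PK library was counted with Cell Ranger 3.0.2 and the BPK libraries with 5.0.1, so genotype and counting version cannot be told apart. None of 44 member tests was called by edgeR or by DESeq2, and 4 had an unadjusted p under 0.05. The 4 were in fibroblasts, basal cells and hormone-sensing cells. There 242 of 10386, 219 of 11325 and 218 of 12800 genes had such a p. Ereg in fibroblasts (120.4 and 22.9 against 2.70 CPM) gave 4.71 (SE 1.19, adjusted p = 0.151), and in basal cells (3.46 and 25.8 against 0.741 CPM) 3.92 (SE 1.08, adjusted p = 0.140). The others were Ereg in hormone-sensing cells, where PK held no UMI, and Areg in fibroblasts (-1.52). The share of all genes called was 0.124% in basal cells, 0.0865% in endothelium, 0% in fibroblasts and pericytes, 0.219% in alveolar cells, 0.164% in hormone-sensing cells, 0.029% in macrophages and 0.0682% in T cells. No gene of the pathway lists was called.

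The tumor held more of several ligands than the BPK 4NQO glands, above all Epgn. Over all kept cells Epgn was 446 CPM in the tumor and 5.17 and 10.7 CPM in the BPK 4NQO glands. Within classes, 10 of 46 member tests were called, all of them ligands and all higher in the tumor, and 20 had an unadjusted p under 0.05. Injections (24 and 12) and tissue cannot be told apart, and the tumor is 1 library. Of all genes tested, 9.48% were called in basal cells, 3.55% in endothelium, 2.08% in fibroblasts, 0.934% in keratinocyte-like cells, 0.914% in hormone-sensing cells, 0.474% in macrophages and 2.1% in pericytes. An unadjusted p under 0.05 was reached by 2711 of 11872 genes in basal cells and 1602 of 10739 in endothelium. Fibroblasts had 1240 of 10764 such genes, keratinocyte-like cells 373 of 5566 and hormone-sensing cells 761 of 12468. Macrophages had 342 of 7809 and pericytes 924 of 7277.

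Epgn was called in each of the 6 classes in which it could be tested. In keratinocyte-like cells it was 40.3 and 21.02 CPM in the glands and 534 CPM in the tumor (log2 fold change 4.29, SE 1.01, edgeR adjusted p = 0.00488). When cells were clustered without the gate, 19.4% and 83.7% of the BPK 4NQO keratinocyte-like cells fell in basal clusters and 93.5% of the tumor ones in keratinocyte-like clusters; the part of this in the result was not tested. In cells gated as basal it was 2.20 and 16.3 against 470.0 CPM (6.12, SE 0.83, adjusted p = 1.2e-10), and in hormone-sensing cells 9.62 and 33.1 against 314 CPM (4.19, SE 0.87, adjusted p = 0.000438). Only 28 of the 58 tumor hormone-sensing cells had an Epgn UMI, and the 10 highest held 81.3% of these UMIs. In the BPK 4NQO glands 68 of 1745 and 50 of 695 had one, and the 10 highest held 51.8% and 56.8%. In each of these 3 epithelial classes the 1 tumor value lay above both gland values. The share of all genes with such a split was not counted. Tumor keratinocyte-like cells held 71.6% of the tumor's Epgn UMIs. They made up 973 of the 2234 kept tumor cells, and their 534 CPM stood beside 446 CPM over all kept tumor cells. At 1000 UMIs, 31.3% of them (28.4 to 34.4) had an Epgn UMI, against 2.07% of tumor endothelium. Unthinned, with median depths of 34193 and 10542 UMIs, these shares were 80.9% and 20.4%.

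Outside the epithelium the tumor's Epgn was low. Fibroblasts had 0 and 1 UMI in the glands and 63 UMIs (17.1 CPM) in the tumor, which is 106-fold higher, with 19.1 to 4198 as the exact counting bounds (adjusted p = 0.000413). Endothelium and macrophages had no UMI in the BPK 4NQO glands and 17.9 and 27.8 CPM in the tumor, at least 10.6-fold (adjusted p = 0.00424) and at least 7.93-fold higher (adjusted p = 0.0077) against a floor of 3 counts per library. Keratinocyte markers were also higher in these 3 classes of the tumor than in those of the BPK 4NQO glands. The summed level of the 8 keratinocyte-like markers was 912 CPM in tumor fibroblasts, 548 CPM in endothelium and 913 CPM in macrophages, with none of the 8 at 0, against 199 to 318, 14.2 to 29.9 and 36.1 to 42.6 CPM in the BPK 4NQO glands; their part in the result was not tested. Relative to tumor keratinocyte-like cells, Epgn stood at 3.20%, 3.35% and 5.21% in these 3 classes, and the marker sum at 6.59%, 3.96% and 6.60%.

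Areg, Ereg and Tgfa were called in the cells gated as basal. Areg was 25.5 and 47.4 CPM in the glands and 811 CPM in the tumor (4.82, SE 0.86, edgeR adjusted p = 2.78e-06), Ereg 3.46 and 25.8 against 80.5 CPM (2.91, SE 0.64, adjusted p = 0.000336), and Tgfa 15.4 and 33.7 against 74.1 CPM (1.96, SE 0.64, adjusted p = 0.0278). DESeq2 did not call Ereg (adjusted p = 0.0766) or Tgfa (adjusted p = 0.178). On the log2(CPM + 0.5) scale Ereg changed by 1.62 with replicate 2 alone and by 4.36 with replicate 1 alone, and Epgn in these cells by 4.81 and 7.44. The keratinocyte-like marker sum in these cells was 6676 CPM in the tumor against 1351 and 884 CPM. Under classes taken from clusters, tumor basal cells had 98.7 CPM of Areg, 34.0 CPM of Epgn and 13.6 CPM of Ereg and were too few to test.

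Areg was also called in pericytes (39.3 and 26.1 against 345 CPM, 3.42, SE 0.89, edgeR adjusted p = 0.0128), on 38 tumor cells. That call was lost with doublets kept (1.86, adjusted p = 0.342). In hormone-sensing cells Areg was 1947 and 2228 against 3895 CPM (1.12, SE 1.04), and in keratinocyte-like cells 533 and 239.7 against 1557 CPM (2.21, SE 0.96), neither of them called. Most of the tumor's Areg UMIs sat outside hormone-sensing cells: tumor hormone-sensing cells held 4.86% and tumor keratinocyte-like cells 67.9% of the library's Areg UMIs. Over all kept tumor cells Areg was 1374 CPM. Tumor keratinocyte-like cells, at 1557 CPM, were thus close to the library level. The hormone-sensing cells, at 3895 CPM and only 58 in number, stood above it.

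Several large differences were not called. Hbegf was 147 and 211 against 640.3 CPM in basal cells (2.16, SE 0.83, edgeR adjusted p = 0.0809) and 52.1 and 67.8 against 298 CPM in fibroblasts (2.55, SE 0.82, adjusted p = 0.0746). Ereg in fibroblasts was 120.4 and 22.9 against 268 CPM (2.06, SE 0.80, adjusted p = 0.204), and 117 of 226 tumor fibroblasts held an Ereg UMI. At 178% of the level of tumor keratinocyte-like cells, Ereg in tumor fibroblasts stood above the 6.59% of the marker sum. Egfr was lower in tumor fibroblasts (142 and 296 against 46.7 CPM, -1.95, SE 0.98, adjusted p = 0.422), in basal cells (38.4 and 76.9 against 22.1 CPM, -1.03, SE 0.72) and in keratinocyte-like cells (34.6 and 54.7 against 14.9 CPM, -1.36, SE 0.93). The tumor Egfr level lay below both glands in each of these 3 classes, and no receptor test was called. How many of all genes lay so was not counted.

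**Figure D3:**
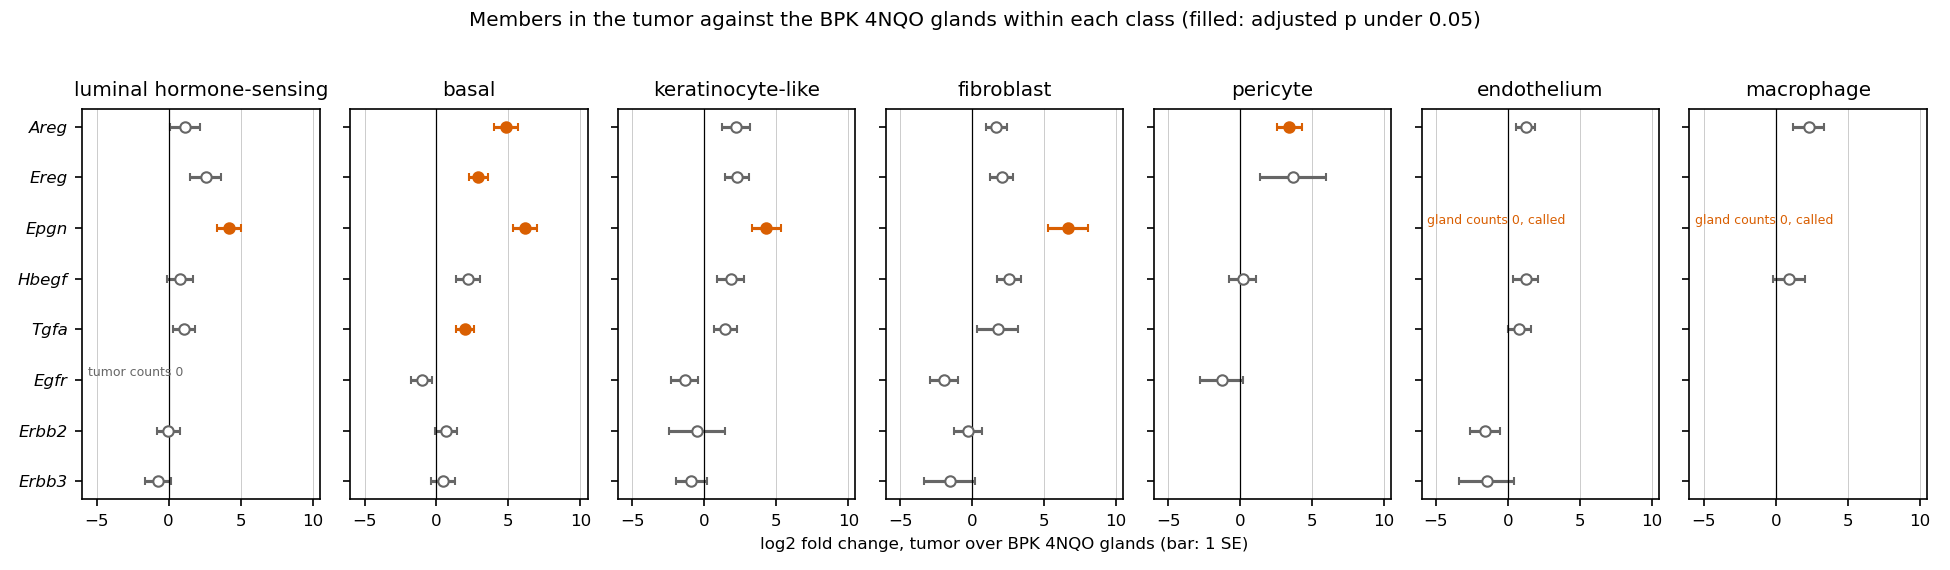
Fitted log2 fold change (x, bars 1 SE) of 8 members in the tumor over the BPK 4NQO glands within each of 7 classes, filled orange where the adjusted p is under 0.05; where a group held no UMI the words give the group in place of a point. The filled points and the called words all belong to the ligands Areg, Ereg, Epgn and Tgfa, and every Egfr point lies below 0.

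The tumor epithelium was not uniform for the ligands. Of the tumor cells gated as basal or keratinocyte-like, 811 fell in a cluster with 4277 CPM of Krt6a, a keratin of activated epidermis, and had 1590 CPM of Areg, 595 CPM of Epgn, 161 CPM of Ereg, 838 CPM of Hbegf and 79.5 CPM of Tgfa. Another 210 cells, in a cluster with 1809 CPM of Krt6a, had 503, 59.7, 34.4, 453 and 40.6 CPM of the same 5 ligands, lower for each. Other keratinocyte genes differed in both directions. Krt79 was higher in these 210 cells than in the first cluster (445 against 20.1 CPM), and Krt10 slightly so (19.8 against 16.8 CPM). Krtdap (458 against 1955 CPM), Sprr1b (51.1 against 511 CPM), Lgals7, Sbsn and Dmkn were lower. Median depth was 14833.5 against 40111 UMIs, and the part of depth in the differences was not tested. A further 52 cells in an unnamed cluster had 2536 CPM of Areg and 213 CPM of Epgn. These are cells of 1 library, clustered on their expression, so the differences carry no test.

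Cells with UMIs of several ligands made up a higher share in the tumor library. At 1000 UMIs, 44.7% of tumor keratinocyte-like cells (428 of 958) had UMIs of at least 2 of the 7 ligands, and 19.1% of at least 3. In the BPK 4NQO glands 5.56% and 10.3% of the few keratinocyte-like cells had at least 2. Basal cells had 0.404%, 0.371%, 0.799% and 1.63% in the glands and 27.9% in the tumor, and hormone-sensing cells 6.04%, 5.19%, 7.16% and 9.54% in the glands and 22.4% in the tumor. For these 3 classes the tumor stood above every gland library with at least 30 such cells. Keratinocyte-like cells of BPK vehicle and PK 4NQO were too few to be counted. At least 1 ligand was seen in 59.6%, 60.2%, 68.9% and 70.0% of gland hormone-sensing cells and in 84.5% of those of the tumor. Fibroblasts with at least 1 ligand made up 6.33%, 6.25%, 9.92% and 7.35% in the glands and 37.8% in the tumor. With 1 tumor library these shares have no test, and 15 shallower tumor keratinocyte-like cells were left out.

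**Figure D4:**
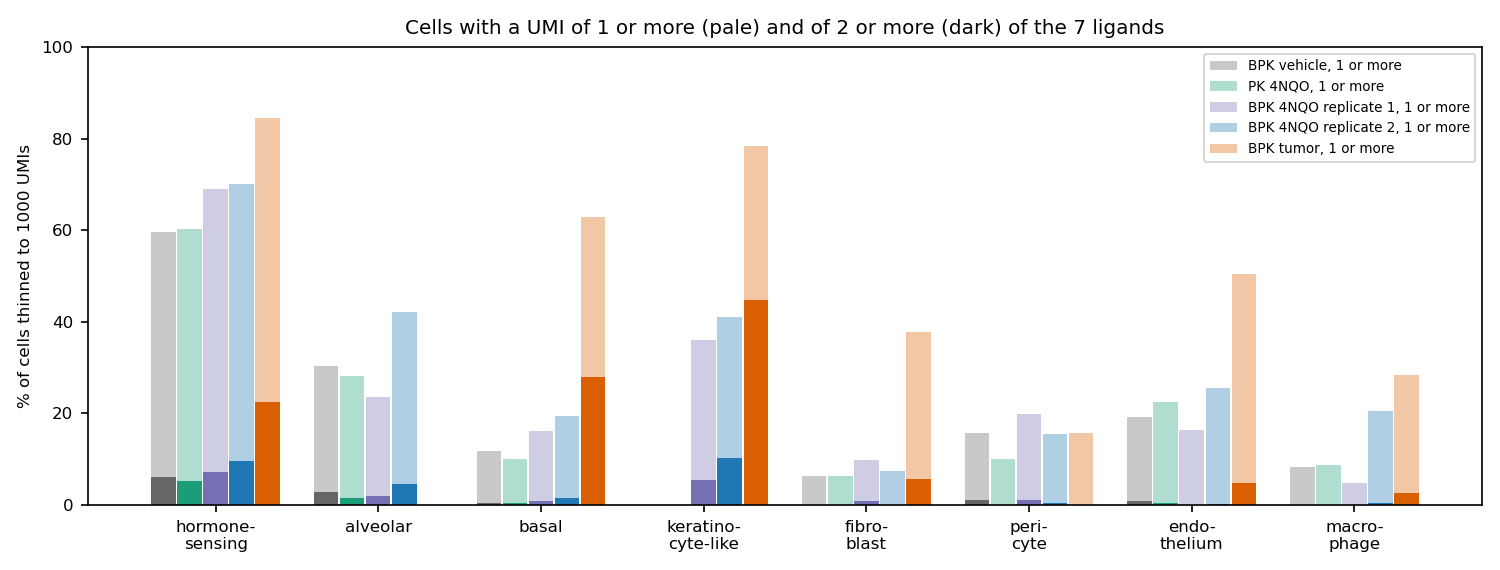
Percent of cells, each thinned to 1000 UMIs, with a UMI of at least 1 (pale bars) and at least 2 (dark bars) of the 7 ligands, by class and library; bars start at 0, and classes with fewer than 30 such cells have none. The dark bar of tumor keratinocyte-like cells reaches 44.7%, and gland hormone-sensing cells have pale bars between 59.6% and 70.0%.

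Pathway genes were called in 5 of the 7 classes tested for the tumor. Plaur, the urokinase receptor gene and an ERK-induced gene, rose in 4 classes: hormone-sensing cells (3.13), fibroblasts (3.77), endothelium (3.09) and pericytes (4.20). Nrg1 rose in basal cells (2.33), from 78.6 and 174 to 496 CPM, and in fibroblasts (2.35), and Nrg2 fell in basal cells (-2.75). Of 13 feedback inhibitors measured in basal cells, none rose and 3 fell: Spry1 (-4.15), Lrig3 (-3.39) and Spry4 (-3.14); the list's median was -0.99 and that of all genes -0.10. Of 9 ERK-induced genes in basal cells, only Myc was called and it fell (-2.78), while the list's median was 0.96. Of 15 immediate early and stress genes, none rose in any class, and Egr1 fell in basal cells (-3.87) and endothelium (-4.13) and Hspa1b in basal cells (-3.85). Adam12, a ligand-shedding protease, rose in basal cells (3.26), Etv4 in endothelium (4.19), Tnfsf11 in fibroblasts (4.39) and Wnt4 in basal cells (2.67). Pgr fell in basal cells (-3.08) and was also lower in fibroblasts. No adaptor or ubiquitin ligase was called. The tumor cells gated as basal have the keratinocyte-like marker levels given above, and the part of that in these basal changes was not tested.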

How the data were processed

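Droplet-captured 3' mRNA libraries were counted by the authors with Cell Ranger (3.0.2 for the PK 4NQO library and 5.0.1 for the others, per the file headers) on mm10, and the tables they deposited hold raw UMI counts for each gene in each barcode, with no normalization. Barcodes with at least 300 genes and at most 20% mitochondrial UMIs were kept, and a simulated-doublet score removed 2117 barcodes, 0.8% per 1000 captured. Each cell was placed in the class with the highest marker score (at least 0.3, at least 2 markers, second score at most 0.67 of the first, a limit chosen after class sizes were seen); 2 markers were not in the tables. A second run used a limit of 0.5, also chosen after seeing the data, and another used classes from 31 Leiden clusters. Counts were summed per library and class (at least 30 cells). Tests used edgeR 4.0.16 (quasi-likelihood, TMM factors, filterByExpr, Benjamini-Hochberg over all genes of a contrast, threshold 0.05; R 4.3.3, limma 3.58.1), with the library as a term between classes and none between groups; DESeq2 1.42.0 was an alternative. Log2 fold changes come from these fits, so they differ from ratios of CPM. On counts of 27998 genes simulated with the same spread for every gene, the class model recovered 74% of 2-fold and 85% of 4-fold changes. The latter were every such gene that passed the filter. That spread was not taken from the real counts. Intervals of shares are exact (Clopper-Pearson). Clustering used scanpy 1.11.5 on Python 3.11.15. All 10 members are named in the text, and genes most like a member are the 3 with the highest r among genes of at least 10 CPM. The members, pathway lists and markers were chosen with earlier results of these data known. Concentrations of 4NQO were not used.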

Additional observations from a re-analysis of the deposited data

How the results depend on the processing

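Of the 64 class differences called, 59 kept their direction and call with DESeq2, 64 with RLE factors, 64 without the low-count filter, 55 without the library term, 60 with doublets kept, 61 under the stricter gate and 59 with classes from clusters. Areg in alveolar cells against the mean of other classes reversed under cluster classes (-1.21). With a gland library left out, 56 to 60 member tests between classes were called in all, and 53 to 59 of the 64 kept their call; between states 3 to 5 were called (4 with all libraries). The calls lost most often were Btc and Erbb3 in basal cells and Hbegf in hormone-sensing cells, each against the mean of other classes. DESeq2 called 0 members for 4NQO against vehicle, where edgeR called 1. For the tumor edgeR called 10 member tests. DESeq2 called 6 in all, of which 5 were among these 10. It did not call 2 of the 10 and gave no adjusted p for Epgn in endothelium, fibroblasts and macrophages. Cluster classes also gave 6 in all, of which 4 were among the 10. They could be tested in endothelium, fibroblasts, macrophages and pericytes only. With 1 BPK 4NQO library left out the group comparisons have no test, and the called members kept their direction. The mean share of hormone-sensing cells with an Areg UMI was 59.2% at 1000 UMIs, 72.1% at 2000 and 80.7% unthinned. The class and state comparisons had the library as a term. Between groups no paired analysis was possible, because the labels match no library of 1 group to a library of another. Depth limits Egf and Epgn in the stromal classes, where gland counts are 0 to 3 UMIs.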

Other observations

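Glial cells, few in each gland library, held Erbb3 at 64.1, 53.8, 94.9 and 150 CPM, in the range of the luminal classes or above it, and Hbegf at 363, 538, 469 and 555 CPM, higher in each library than in any of the 7 tested classes of that library. Both are values of small classes with no test. The same glial cells had 342, 338, 356 and 399 CPM of Areg. Over all 5 libraries, 131 of the 172 cells gated as glial fell in the glial cluster. The part of RNA of other classes in the glial values was not tested.

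The Areg level of small classes differed between gates. T cells of the BPK vehicle library went from 1011 to 45.1 CPM under the stricter gate, tumor neutrophils from 2233 to 76.2 CPM, and glial cells of PK 4NQO from 338 to 10.6 CPM.

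BPK 4NQO replicate 2 had more Egfr than the other gland libraries over all kept cells (75.7 CPM against 16.7, 15.5 and 17.0), and fibroblasts held 75.3% of its Egfr UMIs against 23.2%, 17.8% and 26.5%. Its macrophages, 793 cells, had Hbegf at 230.4 CPM against 24.3 to 39.8 CPM, close to the 212 CPM of tumor macrophages.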
